A study of Mus musculus with 354 samples.

Results

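*Fos*, *Fosb*, *Fosl1*, *Fosl2*, *Jun*, *Junb*, *Jund*, *Egr1*, *Atf3* and *Myc* were taken by name from the deposited counts of single cochlear cells, as 10 of the 55367 genes in each file. All 10 were found, and all 10 passed the filter on low counts. The cells were GFP+ cells purified by fluorescence-activated cell sorting from cochleae of P3 mouse pups, as 177 CA-ERBB2 cells and 177 Control cells on 3 plates of 59 wells per genotype. Both genotypes carried *Fgfr3-iCre* and *ROSA-floxed-rtTA/GFP* and received tamoxifen at P0 and P1 and doxycycline at P2. CA-ERBB2 pups carried *TetON-CAERBB2* as well, a transgene for a constitutively active form of the receptor tyrosine kinase ERBB2. Each plate held cells pooled from several pups, so the plate was the replicate (n = 3) and cells were not. *Fgfr3-iCre* labels supporting cells sparsely, more often toward the apex, and also marks some hair cells.

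AP-1 is a dimer of a JUN protein with a FOS or ATF protein, and it binds DNA at sites related to TGANTCA. Many of its genes, such as *Fos* and *Jun*, and also *Egr1* are immediate early genes. They are transcribed within minutes of a growth factor or stress signal, without new protein synthesis. This is in large part through the ERK pathway that receptors such as ERBB2 feed. The same genes are also known to rise when tissue is taken apart with enzymes. All cells here were dissociated with Accutase for 15 min at 37°C and then sorted at 4°C, and no undissociated sample was compared, so transcripts present in the cochlea and those made during dissociation cannot be told apart in either genotype.

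RefSeq promoter sequences (GRCm38.p6) were matched for 7 of the 10 genes, all except *Fosl1*, *Egr1* and *Myc*. Windows of 250 bases before to 50 bases after 1 RefSeq transcript start per gene were searched on both strands. For *Atf3* that start lies inside the gene as Gencode annotates it (to position 191218039 of chromosome 1, - strand), so its window is not that of the outermost start. TGACG, the core shared by sites of the CREB and ATF factors, was found in the windows of *Fos*, *Fosb*, *Junb* and *Atf3*, and in 20.8% of all 32851 promoters. TGANTCA was in none of the 7 windows (7.81% of all promoters), nor was TGACGTCA, which contains TGACG (1.79%), or the CArG box of serum response factor (1.63%). GCGNGGGCG, the site of EGR1, was in the windows of *Fosb* and *Fosl2* (5.55% of all promoters). These matches are descriptions of letters in a window and not measured binding. Sequence beyond the windows was not searched, nor were *Fosl1*, *Egr1* and *Myc*, so sites there, the CArG box included, would have been missed. The 130 bases before that start of the 4 genes with TGACG are shown because they hold all of the matches printed in capitals (TGACG, or CGTCA where the match is on the other strand). They lie at chr12:85473760-85473889 (+ strand) for *Fos*, chr7:19310046-19310175 (- strand) for *Fosb*, chr8:84978749-84978878 (- strand) for *Junb* and chr1:191183334-191183463 (- strand) for *Atf3*.
Fos: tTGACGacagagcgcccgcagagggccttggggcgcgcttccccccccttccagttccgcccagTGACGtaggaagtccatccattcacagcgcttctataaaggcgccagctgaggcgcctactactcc
Fosb: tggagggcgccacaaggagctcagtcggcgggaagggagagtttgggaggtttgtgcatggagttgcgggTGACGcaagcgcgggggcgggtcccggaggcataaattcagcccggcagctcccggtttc
Junb: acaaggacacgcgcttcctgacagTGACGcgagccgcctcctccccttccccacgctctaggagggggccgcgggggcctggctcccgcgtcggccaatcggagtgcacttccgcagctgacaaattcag
Atf3: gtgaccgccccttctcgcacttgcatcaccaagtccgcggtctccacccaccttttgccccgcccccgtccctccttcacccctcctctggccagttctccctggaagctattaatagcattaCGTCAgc

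Cells had from 1443 to 5178221 counts, and the plates differed more in the number of genes detected than in depth. The median cell had 10198 and 8679 genes detected on the CA-ERBB2 and Control plates numbered 1, and between 1742 and 2954 on the other 4 plates. Fewer than 100000 counts were found in 35 cells, with 23 of them on Control plate 2 and 10 on plate 3 of the same genotype. To compare shares of cells at an equal total, each of the other 319 cells was thinned to 100000 counts. Thinning did not even out the number of genes detected, whose median was then 7592 and 6491 on the plates numbered 1 and between 1025 and 3064 on the other 4 plates. Of the markers of supporting cells, *S100a1* was detected in 53.1% of the cells, *Cryab* in 48.6%, *Fgfr3* in 30.8% and *Sox2* in 26.8%, so that many wells showed no count of a defining marker. *Erbb2* was at 46 CPM or more on each CA-ERBB2 plate and at 19.8 CPM or less on each Control plate.

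*Fos*, which encodes the founding partner of JUN in AP-1, had the highest level of the 10 genes per length of transcript. Levels are counts of all cells of a plate, scaled by the plate total and TMM factors (CPM), and per kb of exon where genes are compared. The level of *Fos* was 1124 ± 251 CPM per kb (mean ± SD over 6 plates), and its lowest plate (709) was above the highest plate of *Egr1*. *Egr1*, a zinc finger factor induced beside AP-1, followed with 233 ± 89.3 CPM per kb, and its range overlapped with that of *Junb*. *Junb* (156 ± 46.9), *Jund* (130 ± 29.2) and *Jun* (120 ± 35.8 CPM per kb), which encode the JUN partners, came next and had overlapping ranges over the plates. *Atf3*, a stress-induced factor that dimerizes with JUN, ranged from 4.34 to 115 CPM per kb and overlapped with *Jun* above it and *Fosb* below it. *Fosb* (36 ± 11), *Myc* (9.78 ± 4.53) and *Fosl2* (2.13 ± 0.749 CPM per kb) followed in separate ranges. *Fosl1* was lowest, with 0.557 ± 0.695 CPM per kb, and overlapped with *Fosl2*.

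**Figure D1:**
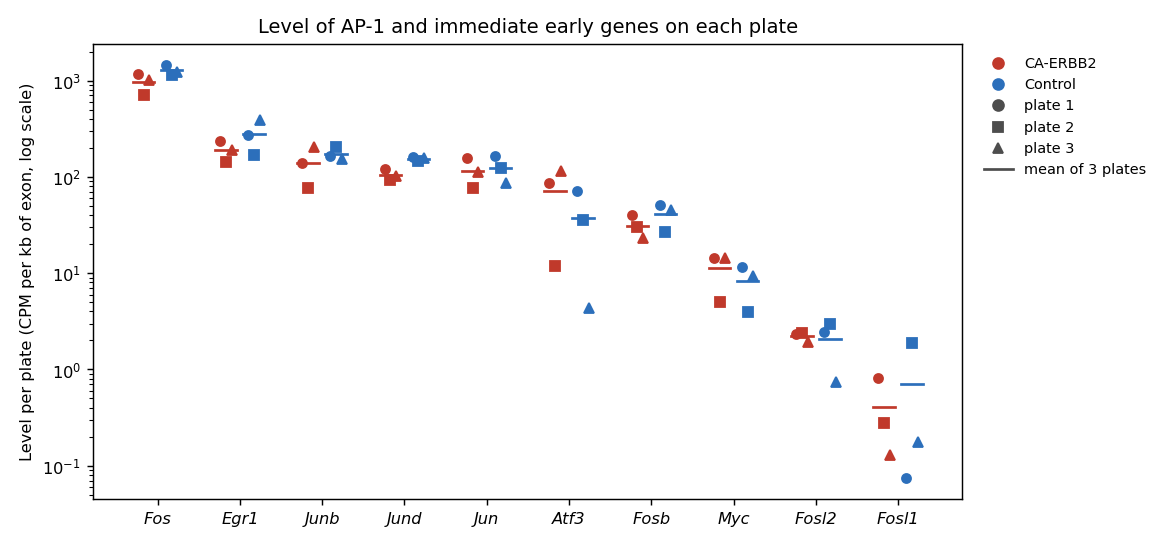
Level of the 10 genes on each plate in CPM per kb of exon (log axis), ordered by the mean over 6 plates. Red symbols are CA-ERBB2 plates and blue symbols Control plates, with a shape for each plate number and a bar for the mean of 3 plates. The Control and CA-ERBB2 plates overlapped for every gene except *Jund*.

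The first comparison asked whether the genes differed between CA-ERBB2 and Control cells, with the counts of all cells of a plate summed. None of the 10 genes passed the test (quasi-likelihood test of edgeR, called at an adjusted p under 0.05 by Benjamini-Hochberg where the log2 fold change was also beyond 1 up or down), beside 0.00467% of the 21416 genes tested, which was *Serpinb2* alone. An unadjusted p under 0.05 was reached by 0 of the 10 as well, against 5.16% of all genes, and DESeq2 and limma called 0 of the 10. The log2 fold change of CA-ERBB2 over Control was above 0 for 3 of the genes and below 0 for 7, with a median of -0.36 (-0.02 over all genes tested). All intervals given below are 95% intervals of that fold change and are wide.

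The FOS genes were as follows. In order of plate number, *Fos* was at 2767, 1668 and 2377 CPM in CA-ERBB2 and at 3436, 2711 and 2910 CPM in Control. The CA-ERBB2 values were mostly lower, with CA-ERBB2 plate 1 inside the Control range, and the log2 fold change was -0.41 (interval -1.48 to 0.66, edgeR adjusted p = 0.955). *Fosb*, a close relative of *Fos* with similar induction, was at 248, 187 and 145 CPM on plates of CA-ERBB2 and at 319, 167 and 282 CPM on Control plates. These ranges overlapped, with a log2 fold change of -0.40 (interval -1.47 to 0.66). *Fosl2*, which encodes FRA-2, an AP-1 protein that often persists after the early ones, was at 22.4, 23.2 and 18.8 CPM on plates of CA-ERBB2 and at 23.9, 28.4 and 7.25 CPM on Control plates (log2 fold change 0.11, interval -1.47 to 1.70). *Fosl1*, which encodes FRA-1, was at 1.66, 0.567 and 0.266 CPM on plates of CA-ERBB2 and at 0.151, 3.79 and 0.355 CPM on Control plates. These values of *Fosl1* rest on between 24 and 451 counts per plate, and 1 cell gave 99.3% of the 451 counts on Control plate 2.

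Among the JUN genes, *Jund*, whose product is present in most cells without stimulation, was the only one of the 10 whose plates did not overlap. It was at 202, 153 and 170 CPM on the CA-ERBB2 plates and at 266, 243 and 263 CPM on the Control plates, all of which were higher. Such a gap, with CA-ERBB2 lower, was found for 4.88% of the 21416 genes, and a gap with CA-ERBB2 higher for 4.2% of them and for 0 of the 10. The log2 fold change of *Jund* was -0.56 (standard error 0.43, interval -1.52 to 0.40, edgeR adjusted p = 0.926), and it was 0.05 after thinning each cell to 100000 counts. *Jun* was at 505, 246 and 354.4 CPM on plates of CA-ERBB2 and at 519, 394 and 272 CPM on Control plates. Its log2 fold change of -0.10 (interval -1.19 to 0.99) was the one nearest to 0. *Junb*, which can oppose JUN at some promoters, was at 319, 177 and 469 CPM on plates of CA-ERBB2 and at 378, 464 and 355 CPM on Control plates (log2 fold change -0.31, interval -1.41 to 0.79). Counting used the strand of the reads, but *Fosl1*, *Jun*, *Junb* and *Jund* each share exon bases with a gene on the other strand (*Ccdc85b*, *Junos*, *Prdx2* and *Gm11175*), and whether the libraries keep strand is not given in the sources used here.

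*Egr1* was at 1051, 644 and 845 CPM on plates of CA-ERBB2 and at 1212, 762 and 1747 CPM on Control plates. The genotypes overlapped, with a log2 fold change of -0.55 (interval -1.66 to 0.56, edgeR adjusted p = 0.936). On Control plate 3, 1 cell with 662 genes detected gave 22.7% of the counts of *Egr1*, and the plate was at 1365 CPM without it. *Atf3* had the largest positive fold change of the 10 genes, 0.94 (interval -1.17 to 3.05, edgeR adjusted p = 0.945). Its plates were at 185, 25.5 and 247 CPM in CA-ERBB2 and at 152, 77.4 and 9.36 CPM in Control, so that the ranges of the genotypes overlapped. A single cell gave 96% of the *Atf3* counts on CA-ERBB2 plate 3 and a single cell 90.6% on CA-ERBB2 plate 2. Without the cell with the most *Atf3* counts, these plates were at 9.93 and 2.44 CPM. *Myc*, a growth gene induced early by mitogens, was at 38.9, 13.6 and 39.2 CPM on plates of CA-ERBB2 and at 31.8, 10.8 and 25.1 CPM on Control plates (log2 fold change 0.44, interval -1.12 to 2.00). Both genotypes were lowest for *Myc* on plate 2.

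Wells differed in which of the genes were detected at all. No count of any of the 10 genes was found in 48 cells, of which 31 had under 100000 counts in all, and these 48 cells had a median of 247 genes detected, against 5822 in the other 306 cells. Of the 48, 25 were on Control plate 2. After thinning, *Fos* was detected in 100%, 70.7% and 56.9% of the cells on the CA-ERBB2 plates and in 98.3%, 86.1% and 75.5% on the Control plates. *Egr1* was detected in 94.9%, 65.5% and 51.7% of CA-ERBB2 cells and in 91.5%, 72.2% and 63.3% of Control cells. *Jun* had the same order of plates, with 100%, 41.4% and 31% in CA-ERBB2 and 88.1%, 63.9% and 55.1% in Control. The plates numbered 1 were the highest in both genotypes for each of these genes, beside their higher number of genes detected.

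**Figure D2:**
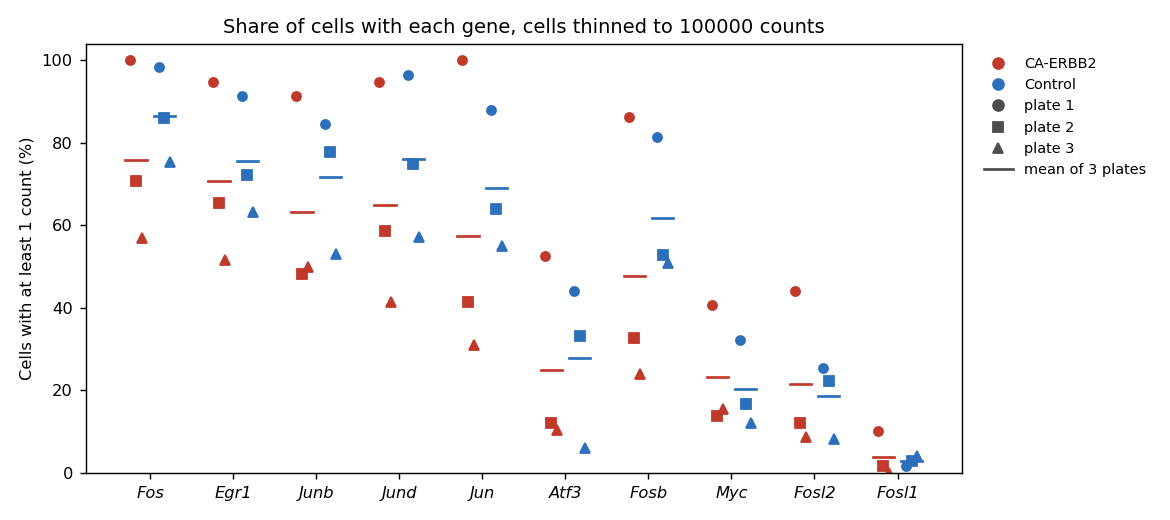
Share of cells with at least 1 count of each gene on each plate, with every cell thinned to 100000 counts and cells below that total left out (1 cell on each of CA-ERBB2 plates 2 and 3, 23 on Control plate 2 and 10 on Control plate 3). Bars are means of 3 plates. The plates numbered 1 (circles) lie above the other plates of their genotype for 9 of the 10 genes, and the genotypes overlap.

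In the thinned cells, the mean share of cells was lower in CA-ERBB2 than in Control for *Fos* (75.9 ± 22 against 86.6 ± 11.4%, SD, n = 3 plates), *Jun* (57.5 ± 37.2 against 69 ± 17.1%) and *Fosb* (47.8 ± 33.8 against 61.7 ± 17%). The two-sided exact permutation test over plates gave p = 0.5 for *Fos* and p = 0.6 for *Jun* and *Fosb*. Over all 10 genes p lay between 0.5 and 1, and 3 plates against 3 cannot go below 0.1. Without thinning, that smallest value was reached by 1 of the 10 genes, *Fosl1*, detected in 15.3%, 5.08% and 6.78% of CA-ERBB2 cells and in 3.39% of cells on each Control plate. With thinning, the shares of *Fosl1* overlapped, at a mean of 3.96% in CA-ERBB2 and 2.85% in Control (exact permutation p = 0.9). *Fosl2* was detected in 21.6 ± 19.5% of thinned CA-ERBB2 cells and 18.6 ± 9.18% of thinned Control cells, and *Myc* in 23.3 ± 15% and 20.4 ± 10.5%.

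The level within single cells spread over several orders of magnitude. Among CA-ERBB2 cells the median level of *Fos* was 2989, 363 and 99.3 CPM on plates 1, 2 and 3, and the highest cell was at 16776, 18370 and 9980 CPM. The Control medians were 3654, 124 and 629 CPM, and the highest cells were at 16608, 6571 and 13273 CPM. The two-sided exact permutation test of these medians gave p = 0.6 between genotypes. The medians spread over more than the summed levels of *Fos*, whose highest plate was 2.06-fold above the lowest. On the plates numbered 1, 13 and 14 cells held 50% of the *Fos* counts, and on the others between 5 and 10 cells did.

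**Figure D3:**
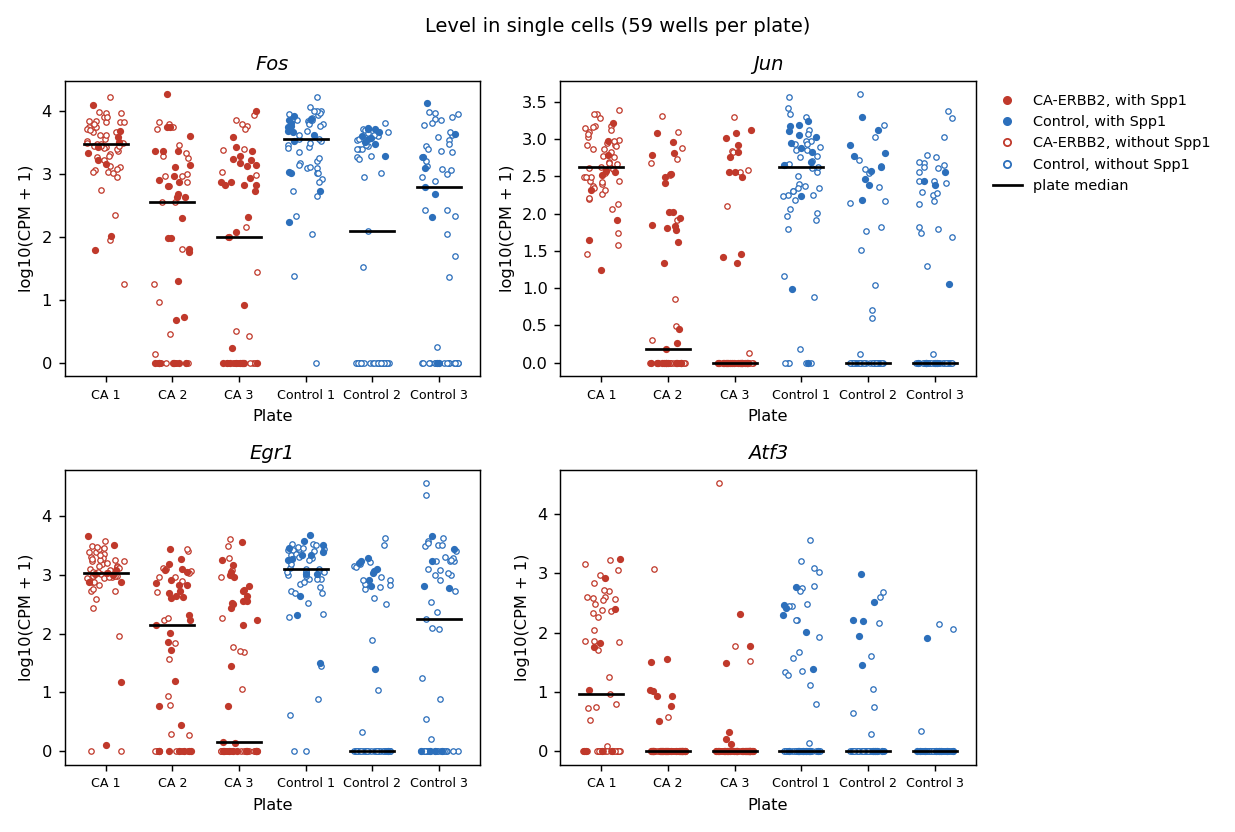
Level of *Fos*, *Jun*, *Egr1* and *Atf3* in each of the 59 cells of a plate, as log10(CPM + 1), with filled symbols for cells with *Spp1* at 100 CPM or more, open symbols for the other cells and a black line at the plate median. Most cells of the plates numbered 1 have *Fos*, *Jun* and *Egr1*, and the other plates have more cells at 0. The *Atf3* cell at the top of CA-ERBB2 plate 3 holds 96% of that plate's counts of *Atf3*.

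Cells with *Spp1* at 100 CPM or more were then compared with the other cells of the same plate. *Spp1* encodes osteopontin, a secreted ligand of the receptor CD44. Cells with *Spp1* numbered 10, 31 and 31 on the 3 plates of CA-ERBB2, in order of plate number, and 14, 10 and 9 on those of Control. Of these cells, 2 on Control plate 3 and 1 on each of CA-ERBB2 plates 2 and 3 had under 100000 counts and are not in the thinned shares. In the smallest of them (1479 counts), 1 count of *Spp1* is enough to reach 100 CPM. The classes were not alike in the amount of *Spp1*: cells with *Spp1* were at 50612, 211644 and 213812 CPM on the CA-ERBB2 plates and at 552, 1523 and 5797 CPM on the Control plates. They were also not alike in complexity. On CA-ERBB2 plate 3 the median cell had 2916 genes detected with *Spp1* and 1114 without, on Control plate 2 it had 5331 with and 693 without, and on CA-ERBB2 plate 1 it had 8788 with and 10313 without. The part of these differences in the results below was not tested.

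None of the 10 genes passed the test between the classes in CA-ERBB2 cells, where 0.014% of the 21497 genes tested did (*Spp1*, which defined the classes, *Lgals1* and *Timp1*). *Atf3* alone had an unadjusted p under 0.05, as 6.83% of all genes did. In Control cells 0 of the 10 passed, as did 0% of the genes tested, and there even *Spp1* had an adjusted p of 0.266, and 0 of the 10 genes had an unadjusted p under 0.05 (5.04% of all genes). DESeq2 and limma called 0 of the 10 genes in either genotype. The median log2 fold change of the 10 genes, with over without *Spp1*, was -0.16 in CA-ERBB2 (0.08 over all genes) and 0.42 in Control (-0.18 over all genes).

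*Fos* was at 2862, 1648 and 1916 CPM in the CA-ERBB2 cells with *Spp1* of plates 1, 2 and 3 and at 2539, 1782 and 3606 CPM in those without. It was higher with *Spp1* on 1 of 3 plates, and the log2 fold change was -0.28 (interval -0.84 to 0.28, edgeR adjusted p = 0.876). In Control cells *Fos* was at 3168, 3717 and 3845 CPM with *Spp1* and at 3274, 2282 and 2647 CPM without. It was higher with *Spp1* on 2 of 3 plates, and the log2 fold change was 0.40 (interval -0.16 to 0.95, edgeR adjusted p = 0.913). The difference between the class effects of the genotypes was -0.68 for *Fos* (interval -1.47 to 0.11, edgeR adjusted p = 0.939). This test of the difference was passed by 0 of the 10 genes, beside 0.00465% of the genes tested (*Timp1* alone), and 0 of the 10 had an unadjusted p under 0.05, against 4.76% of all genes. DESeq2 and limma called 0 of the 10 here as well. With every cell weighted equally on a log2(CPM + 1) scale, the class difference in Control cells was 3.02 (limma adjusted p = 0.4), beside 23 of 49 cells without *Spp1* on Control plate 2 that had under 100000 counts.

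*Jun*, *Junb*, *Jund* and *Egr1* had class differences close to 0 on the scale of summed counts. In CA-ERBB2 cells the log2 fold change was -0.19 for *Jun* (interval -1.22 to 0.84), 0.00 for *Junb* (-1.16 to 1.17), -0.13 for *Jund* (-1.19 to 0.93) and 0.12 for *Egr1* (-0.50 to 0.74). In Control cells it was 0.21 for *Jun* (-0.86 to 1.28), 0.48 for *Junb* (-0.75 to 1.71), 0.37 for *Jund* (-0.69 to 1.42) and 0.27 for *Egr1* (-0.35 to 0.89). *Egr1* had the narrowest intervals of these, and it was at 1137, 689 and 872 CPM with *Spp1* and 957, 620 and 901 CPM without on the CA-ERBB2 plates. Its Control values were 1420, 922 and 1704 CPM with *Spp1* and 1063, 695 and 1731 CPM without, so that in both genotypes *Egr1* was higher with *Spp1* on plates 1 and 2 and slightly lower on plate 3.

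*Fosb* was the only one of the 10 genes to lie on the same side on all 3 plates of a genotype. In Control cells it was at 302, 302 and 281 CPM with *Spp1* and at 301, 109 and 278 CPM without, and 7.58% of all genes were higher with *Spp1* on all 3 Control plates. On all 3 Control plates together, 0 of the 10 were lower (16.3% of all genes), and in CA-ERBB2 none was higher (14.9%) or lower (9.72%) on all 3 plates. Most of that difference was on plate 2, and the log2 fold change was 0.48 (interval -0.78 to 1.75). In CA-ERBB2 cells *Fosb* was at 261, 221 and 91.5 CPM with *Spp1* and at 227, 154 and 272 CPM without.

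*Fosl2* was lower with *Spp1* on the plates numbered 1 and higher on the other plates in both genotypes. It was at 10.7, 39.2 and 27 CPM with *Spp1* and at 22.4, 3.69 and 4.79 CPM without on the CA-ERBB2 plates, and at 12.5, 86.8 and 21.9 CPM with and 25.6, 2.98 and 3.7 CPM without on the Control plates. The log2 fold changes were 1.64 in CA-ERBB2 (standard error 1.39, edgeR adjusted p = 0.862) and 2.19 in Control (standard error 1.48, edgeR adjusted p = 0.913). The share of thinned cells with *Fosl2* was 40%, 20% and 13.3% with *Spp1* and 44.9%, 3.57% and 3.57% without on the CA-ERBB2 plates. On the Control plates it was 42.9%, 50% and 14.3% with *Spp1* and 20%, 11.5% and 7.14% without. Few cells carry these levels, and 1 cell gave 72% of the *Fosl2* counts on CA-ERBB2 plate 3, 47.8% on CA-ERBB2 plate 2 and 61.6% on Control plate 2. Each of these cells was with *Spp1*, so the higher levels with *Spp1* on these plates rest largely on single cells.

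*Atf3* had the largest class difference in CA-ERBB2 cells, with 289, 4.35 and 10.8 CPM with *Spp1* and 155, 54.1 and 753 CPM without. It was lower with *Spp1* on plates 2 and 3 and higher on plate 1, and the log2 fold change was -3.18 (standard error 1.44, edgeR adjusted p = 0.73). It was -4.86 without CA-ERBB2 plate 1, -1.25 without CA-ERBB2 plate 3 and 0.17 with every cell weighted equally (limma). The single cells that gave 90.6% and 96% of the *Atf3* counts of plates 2 and 3 were both without *Spp1*, and the share of thinned cells with *Atf3* on these plates was 20% and 10% with *Spp1* and 3.57% and 10.7% without. In Control cells *Atf3* was at 81.2, 156 and 11.9 CPM with *Spp1* and at 163, 43.2 and 8.62 CPM without. *Myc* was at 25.3, 15.6 and 52.7 CPM with *Spp1* and at 38, 11.8 and 17.4 CPM without in CA-ERBB2 cells (log2 fold change 0.46, standard error 0.89). Its Control values were 22.1, 18 and 11.2 CPM with *Spp1* and 32.5, 7.67 and 28 CPM without. *Fosl1* was at or below 1.77 CPM in all classes except the Control cells with *Spp1* of plate 2, where it was at 12.5 CPM.

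**Figure D4:**
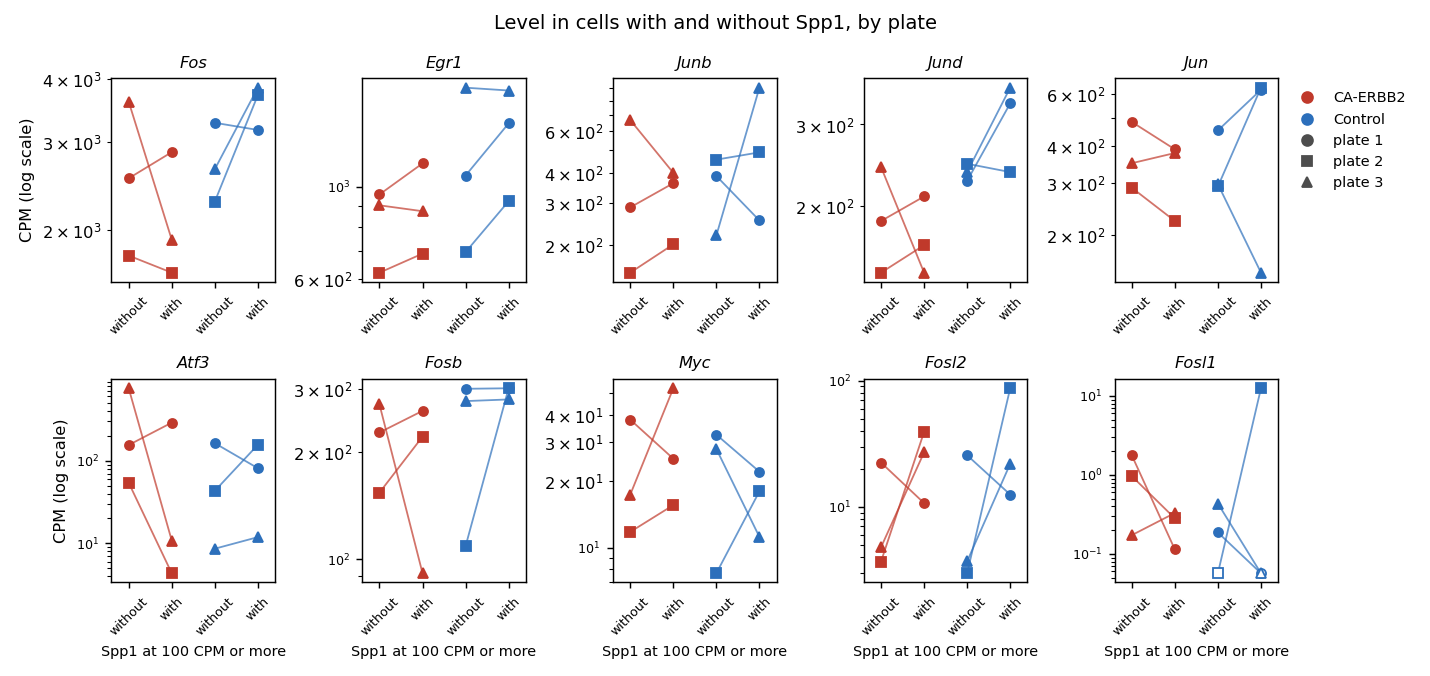
Level of each gene in the summed counts of cells without and with *Spp1* at 100 CPM or more (CPM, log axes that differ between panels), with a line joining the classes of a plate. An open symbol marks a class with 0 counts, drawn at 50% of the lowest other value. Lines of a genotype run in both directions for every gene except *Fosb* in Control cells.

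Cells without *Spp1* were also compared between genotypes, which leaves out the class that was larger in CA-ERBB2 (72 of 177 cells, against 33 of 177 in Control). None of the 10 genes passed the test, beside 0% of the 19163 genes tested, and none had an unadjusted p under 0.05 (3.34% of all genes). DESeq2 and limma called 0 of the 10. *Fos* was at 2625, 1840 and 3724 CPM on the CA-ERBB2 plates and at 3367, 2331 and 2700 CPM on the Control plates, with a log2 fold change of -0.04 (interval -1.39 to 1.31). *Jun* had a log2 fold change of 0.12 (interval -1.21 to 1.46) and *Egr1* of -0.48 (interval -1.86 to 0.90). *Jund* was at 192, 149 and 251 CPM on the CA-ERBB2 plates and at 233, 252 and 242 CPM on the Control plates, which overlapped among these cells. The median log2 fold change of the 10 genes was -0.02 (-0.08 over all genes tested).

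Across the cells of a plate, most of the genes were positively correlated with each other. Spearman's rho was taken within each plate on cells thinned to 100000 counts (36 to 59 cells per plate) and averaged over the 6 plates, as a description. Cells of a plate share a library preparation and differ in complexity, and rho with the number of genes detected averaged between 0.18 and 0.36 for the 9 genes other than *Fosl1*. Among these 9 genes, the 36 pairs had mean rho between 0.17 and 0.58, and 35 pairs were positive on all 6 plates. The exception was *Atf3* with *Myc*, positive on 5 plates. Some of these positive values were close to 0, with a lowest plate of 0.00 for *Fosb* with *Myc* and for *Jund* with *Myc*. Pairs of other genes were not counted, so the share of such pairs over all genes is not known. The highest pairs were *Fos* with *Jun* (0.58, from 0.49 to 0.69 on single plates), *Jun* with *Egr1* (0.55, from 0.36 to 0.66) and *Fos* with *Egr1* (0.54, from 0.38 to 0.70). *Fos* correlated less with *Myc* (0.22), *Fosl2* (0.19) and *Atf3* (0.17). With the number of genes detected held constant by partial correlation, the mean rho with *Fos* was 0.52 for *Jun*, 0.43 for *Egr1*, 0.37 for *Fosb*, 0.32 for *Jund* and 0.30 for *Junb*, each positive on all 6 plates. It was 0.10 for *Fosl2* (positive on 5 plates), 0.10 for *Myc* (4 plates) and 0.09 for *Atf3* (4 plates). *Fosl1* was too sparse for a mean, with no count in any thinned cell of CA-ERBB2 plate 3.

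**Figure D5:**
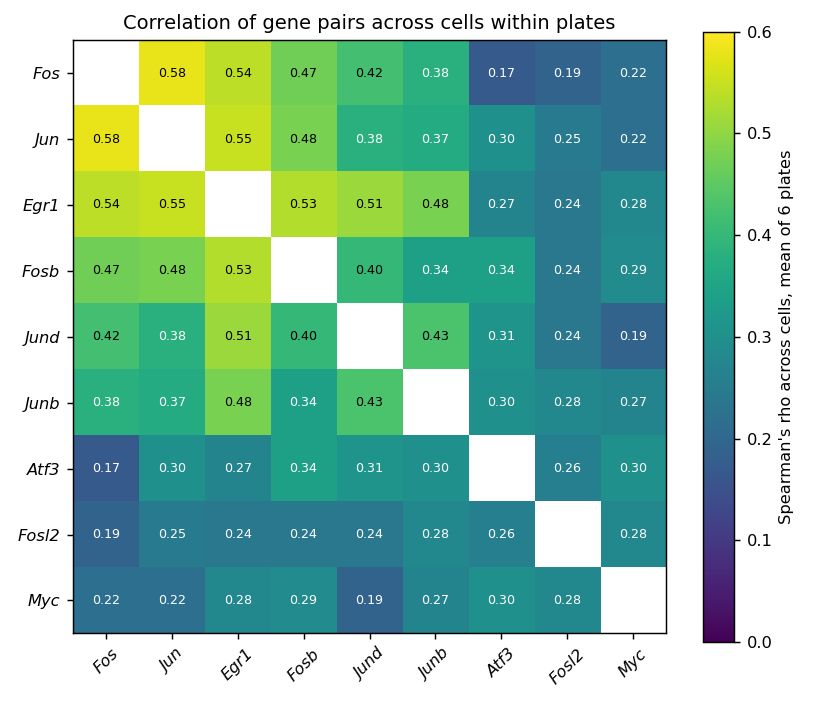
Spearman's rho of each pair of genes across cells thinned to 100000 counts, averaged over 6 plates, with *Fosl1* left out. *Fos*, *Jun*, *Egr1*, *Fosb*, *Jund* and *Junb* form the block of higher values (0.34 to 0.58), and pairs with *Atf3*, *Fosl2* or *Myc* reach at most 0.34.

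The genes most like *Fos* were looked for among the 2842 genes detected in at least 20% of the thinned cells of every plate. *Jun* and *Egr1* ranked first and second. The 5 genes outside the list of 10 with the highest mean rho were *Ier2*, another immediate early gene (0.52), *Col1a2*, a chain of type I collagen (0.49), the imprinted non-coding RNA *H19* (0.46), *Btg2*, an antiproliferative immediate early gene (0.45), and the collagen chaperone *Serpinh1* (0.44). *Fosb* ranked at 5, *Jund* at 13 and *Junb* at 31.

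The other immediate early genes and the heat shock genes are also known to rise on dissociation, and were tested in the same fits. None of 21 other immediate early genes passed the test between genotypes in either direction, with a median log2 fold change of -0.25 (-0.02 over all genes). The most abundant, *Ier2*, was at 587, 296 and 539 CPM in CA-ERBB2 and at 584, 639 and 706 CPM in Control (log2 fold change -0.44, edgeR adjusted p = 0.946), and *Ccn1* had a log2 fold change of -0.11. The log2 fold change was above 0 for 8 of the 21 and below 0 for 13. An unadjusted p under 0.05 was found for 2 of the 21 (5.16% of all genes), *Egr3* (2.07) and *Dusp2* (4.49, detected in 5.93% of the cells). The plates of the genotypes overlapped for both. None of 13 heat shock genes passed (median 0.28). *Hsp90ab1* was at 1268, 1105 and 1673 CPM in CA-ERBB2 and at 907, 973 and 988 CPM in Control (log2 fold change 0.50, edgeR adjusted p = 0.936), and *Hspa8* had a log2 fold change of 0.25. The inducible heat shock genes *Hspa1a* and *Hspa1b* were at most at 21.7 CPM on any plate and were detected in 9.89% and 11.9% of the cells. Between the *Spp1* classes none of these 34 genes passed the edgeR test in either genotype, with *Ier2* at a log2 fold change of 0.61 in CA-ERBB2 and 0.59 in Control.

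An unadjusted p under 0.05 between the classes was found in CA-ERBB2 cells for 2 of the 21 other immediate early genes and 2 of the 13 heat shock genes (6.83% of all genes), and in Control cells for 4 and 0 of them (5.04% of all genes). *Egr3*, a relative of *Egr1*, was at 93.8, 269 and 373 CPM with *Spp1* and at 26.5, 53.9 and 17.8 CPM without in CA-ERBB2 cells (log2 fold change 2.79, edgeR adjusted p = 0.605, DESeq2 adjusted p = 0.00972). Its Control values were 8.45, 26.3 and 4.51 CPM with *Spp1* and 54.1, 58.1 and 16.1 CPM without, so that it was higher with *Spp1* on every CA-ERBB2 plate and lower on every Control plate (as for 14.9% and 16.3% of all genes, each taken alone). The difference between the class effects was 4.67 for *Egr3* (edgeR adjusted p = 0.939, DESeq2 adjusted p = 0.00311). *Arc*, an immediate early gene best known from neurons, differed by 8.73 between the class effects (edgeR adjusted p = 0.939, DESeq2 adjusted p = 5.68e-07), with 68.7, 4.95 and 127 CPM with *Spp1* and 11.6, 1.31 and 11 CPM without in CA-ERBB2 cells. In Control cells *Arc* was at 0.681, 0 and 0 CPM with *Spp1* and at 37.4, 4.37 and 0.413 CPM without. *Arc* was detected in 42 cells (11.9%), and DESeq2 called 473 genes for the difference between class effects, where edgeR called 1. For this difference, an unadjusted p under 0.05 was found for 4 of the 21 other immediate early genes, against 4.76% of all genes. Of these, *Dusp2* (-6.17) and *Nr4a3* (-3.44) lay on the other side from *Egr3* and *Arc*. The median of the 21 was -0.12 (0.30 over all genes). The heat shock genes *Hspa1b* and *Hspb1* were at most at 31 and 18.1 CPM in any class, with log2 fold changes of 4.74 (edgeR adjusted p = 0.605, DESeq2 adjusted p = 0.000261) and 3.75 (edgeR adjusted p = 0.689, DESeq2 adjusted p = 0.0239) between the classes in CA-ERBB2 cells. Among the alternatives, limma included, only DESeq2 called *Egr3*, *Arc*, *Hspa1b* or *Hspb1*.

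Of 11 other partners of AP-1 (the BATF, MAF and ATF families), all were tested and none passed between genotypes (median 0.38), between the classes in CA-ERBB2 cells (median 0.89) or in Control cells (median 0.26). The most abundant, *Maf* and *Atf2*, had log2 fold changes between genotypes of -0.22 and 0.38. Of 12 ERK feedback and ETV genes, which are known to be induced by ERK signaling, none passed between genotypes. The log2 fold change was above 0 for 11 of them, as for 49.2% of all genes, and the median was 1.23 (-0.02 over all genes). An unadjusted p under 0.05 was found for 4 of the 12 (*Dusp6*, *Spry1*, *Spred2* and *Dusp5*, all with a log2 fold change above 0) and for 5.16% of all genes. The plates of the genotypes overlapped for *Spred2* (13.4, 4.23 and 166 CPM in CA-ERBB2, 15.5, 3.65 and 4.01 in Control), whose rise was on plate 3. They also overlapped for *Dusp5* (16.1, 67.6 and 52.2 CPM in CA-ERBB2, 20.2, 5.12 and 11.3 in Control). They did not for *Spry1* (111, 44 and 127 CPM in CA-ERBB2, 40.3, 41.9 and 15.1 in Control), as for 4.2% of all genes. The gap of *Spry1* was narrow, between 44 CPM on CA-ERBB2 plate 2 and 41.9 CPM on Control plate 2. The most abundant of the 12 genes, the ERK phosphatase gene *Dusp6*, was at 279, 295 and 582 CPM in CA-ERBB2 and at 98.6, 231 and 85.4 CPM in Control. All its CA-ERBB2 plates were above its Control plates, as for 4.2% of all genes (log2 fold change 1.48, standard error 0.57, edgeR adjusted p = 0.911). *Phlda1* had a log2 fold change of 0.76 (edgeR adjusted p = 0.918). Among cells without *Spp1*, the median of the 12 genes was 0.39 (-0.08 over all genes), with 9 above 0, as 47.5% of all genes were. There *Dusp6* had a log2 fold change of 0.18, and *Spry1* alone had an unadjusted p under 0.05 (2.65, 3.34% of all genes). Between the *Spp1* classes none of the 12 passed the edgeR test. In CA-ERBB2 cells their median was 0.88 (0.08 over all genes), and 2 of them had an unadjusted p under 0.05 (6.83% of all genes). *Spry1* was at 21.6, 43.2 and 28.7 CPM with *Spp1* and at 116, 47.3 and 339 CPM without. In Control cells the median was 0.13 (-0.18 over all genes).

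Of 11 genes known as AP-1 targets, 9 passed the filter on low counts, and none passed the edgeR test between genotypes. *Timp1*, an inhibitor of matrix metalloproteinases, was at 719, 19457 and 22151 CPM in CA-ERBB2 and at 17.6, 171 and 98.9 CPM in Control (log2 fold change 7.20, standard error 1.39, edgeR adjusted p = 0.611). *Mmp9*, which encodes a metalloproteinase, was at 404, 4081 and 5831 CPM in CA-ERBB2 and at 21.5, 124 and 127 CPM in Control (log2 fold change 5.24, standard error 1.07, edgeR adjusted p = 0.653). The plates of the genotypes did not overlap for either gene (as for 4.2% of all genes), and both were called by DESeq2 (adjusted p = 1.55e-07 and 8.61e-05) and by edgeR without the filter on low counts (adjusted p = 1.42e-09 and 7.48e-07).

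*Timp1* was the only gene of these pathway lists that passed an edgeR test as fitted here, between the *Spp1* classes. In CA-ERBB2 cells it was at 4992, 35283 and 34651 CPM with *Spp1* and at 17.8, 18.1 and 2.84 CPM without, and the classes were far apart on every plate. The log2 fold change was 10.72 (standard error 0.95, edgeR adjusted p = 0.00376), and the call was lost without CA-ERBB2 plate 2. In Control cells *Timp1* was at 8.25, 134 and 89.3 CPM with *Spp1* and at 19.2, 188 and 99.6 CPM without (log2 fold change -0.61). *Mmp9* was at 2406, 7399 and 9122 CPM with *Spp1* and at 70.2, 4.4 and 0.208 CPM without in CA-ERBB2 cells, with a log2 fold change of 9.84 (standard error 2.04, edgeR adjusted p = 0.292). DESeq2 and limma called it (adjusted p = 6.16e-09 and 5.82e-05). Between the same classes, *Fos* (-0.84 to 0.28) and *Egr1* (-0.50 to 0.74) had the narrowest intervals of the 10 genes on the log2 scale. The intervals of *Fosl2* (-1.41 to 4.69), *Atf3* (-6.35 to -0.01) and *Fosl1* (-5.91 to 2.27) were wider. A link between the levels of the 10 genes and those of the targets was not tested. The targets were listed with their association with *Spp1* in these cells already known, so they are no independent evidence of a direction.

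Markers of some other cell types moved with the groups, and their part in the results was not tested. The summed level of the 2 hemoglobin genes was between 16.7 and 373 CPM of the plate total on CA-ERBB2 plates and between 2887 and 6075 on Control plates. Within Control it was between 11.6 and 97.9 CPM in cells with *Spp1* and between 4148 and 7991 CPM in cells without. The 7 macrophage markers summed to between 49.9 and 496 CPM on CA-ERBB2 plates and between 387 and 1067 CPM on Control plates, and the 6 hair cell markers to between 97.8 and 151 and between 37.8 and 1008 CPM. The 5 mesenchyme markers overlapped, with 1131 to 2063 CPM in CA-ERBB2 and 1602 to 2221 CPM in Control, as did the 3 endothelium markers (8.06 to 40.2 and 21.1 to 138 CPM) and the 2 markers of Schwann cells and glia (79.1 to 385 and 133 to 666 CPM). The 9 supporting cell markers summed to between 1629 and 2504 CPM in CA-ERBB2 and between 1520 and 3602 CPM in Control. In CA-ERBB2 cells they were lower with *Spp1* (595 to 1207 CPM) than without (2751 to 3605 CPM), and none of the markers of any list was at 0 over all cells.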

How the data were processed

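Counts per gene of 354 single-cell SMART-Seq Single PLUS libraries were analysed. Reads had been trimmed by the authors, aligned to GRCm38 (STAR 2.7.6a) and counted by strand on exons (featureCounts of Subread 2.0.1). The deposited values are raw counts without normalization. The paper gives UMI counts in its results but no step with molecular identifiers in its methods, and the counts were handled as reads.

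Plates were read from the number within a sample's name. Counts were summed per plate, or per plate and *Spp1* class, and edgeR 4.0.16 (R 4.3.3) was used for tests (TMM factors, filterByExpr, quasi-likelihood test). The fit of *Spp1* classes had the plate as a block and used the newer quasi-likelihood method, chosen after a test on simulated data. The simulated test kept here ran each fit with its own method only, so it does not rank the newer method against the first. In that test the fits of genotypes and of classes missed most of the changes put in. Since nothing separates the pups of a plate, p-values between genotypes measure the spread between plates. Those of the class fit, with the plate as a block, measure the spread of the class difference across plates. Plate sums lay between 108071910 and 188408290 counts. For shares of cells and plate medians, exact permutation tests (two-sided) were run over plates. Spearman's rho is the mean of within-plate values. Lengths come from Gencode M21 exons and promoters from RefSeq.

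The genes, the *Spp1* threshold, the lists and the tests were chosen with earlier results of these data known. Named genes are the 10 genes, genes of a list that passed, the 2 most abundant of the lists of pathway genes, and the 5 most like *Fos*. *Serpinb2*, *Lgals1*, *Erbb2*, *Spp1*, *Hspa1a*, *Hspa1b*, *Hspb1*, *Egr3*, *Arc*, *Dusp2*, *Nr4a3*, *Spry1*, *Spred2*, *Dusp5* and the markers named outside that rule were chosen after their values were seen. Alternatives were DESeq2 1.42.0, limma 3.58.1 with cells weighted equally (pseudocount 1 CPM), other size factors, filters, *Spp1* thresholds and plates.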

Additional observations from a re-analysis of the deposited data

Results flagged for a closer look

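*Timp1* differed between the genotypes in its response to the *Spp1* class. The log2 difference between cells with and without *Spp1* was 11.33 higher in CA-ERBB2 than in Control (standard error 1.10, edgeR adjusted p = 0.0109 over all genes tested), and the cells with *Spp1* also held more *Spp1* in CA-ERBB2. The call was lost in 7 of 19 alternatives, namely without CA-ERBB2 plate 2, without any 1 of the 3 Control plates, with cells weighted equally in limma, at an *Spp1* threshold of 10 CPM and with the first quasi-likelihood method of edgeR, and the log2 difference ranged from 7.13 to 12.81 over all 19.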

How the results depend on the processing

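None of the 10 genes was called in any of the 5 comparisons under any alternative, with the lowest adjusted p at 0.0847 (*Atf3* between the classes in CA-ERBB2). Of 902 fold changes of these genes under alternatives, 807 kept their sign and 95 changed it, among values that were not called. The number of all genes called moved widely, and the cause was not tested. For the genotypes (1 gene), it was 233 with DESeq2, 285 without a filter on low counts, 0 with limma, 0 after thinning, 0 without the plates numbered 1 and 0 to 2 with 1 plate left out. For the classes in CA-ERBB2 (3 genes), it was 836 with DESeq2, 49 with limma, 9 after thinning, 12 at 1000 CPM of *Spp1* and 0 to 3 with 1 plate left out. For the classes in Control (0 genes), it was 301 with DESeq2, 1 with limma, 2 after thinning, 1 at 10 CPM, 1 at 1000 CPM and 0 with any 1 plate left out. For the difference between class effects (1 gene), it was 473 with DESeq2, 2 with cells filtered on counts and mitochondrial share, 3 with limma, 0 at 10 CPM, 4 at 1000 CPM, 0 with the first quasi-likelihood method and 0 to 2 with 1 plate left out. For the cells without *Spp1* (0 genes), it was 63 with DESeq2 and 310 without a filter. The alternatives without the plates numbered 1 and with the first quasi-likelihood method were chosen after seeing the data, and at 1000 CPM Control plate 3 had too few cells and was left out.

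Plates of the genotypes were not paired by number, since no label says that a number marks a shared sort or litter and the correlations of the deviations of same-numbered plates (0.215, 0.0822 and 0.0773) were not all above 0.1. The paper used littermates as Controls and collected the cells in independent sorts, but does not say which plates shared a litter or a sort. Each plate correlated best with the plate of its own number, and both plates numbered 1 had more genes detected, so that a pairing cannot be told from these data. With the replicate block, 1 gene was called between genotypes and 0 among cells without *Spp1*. Without the block of plates, 7, 1 and 2 genes were called for the classes in CA-ERBB2, in Control and for their difference, and none of the 10 genes was among them. Genes with counts in few cells, *Fosl1* above all, are limited by the number of cells.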
